A study of Homo sapiens with 6 samples.

Results

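The BCL2 family genes are 10 genes that set how readily a cell enters mitochondrial apoptosis. They were chosen by name out of 58735 genes listed for each library, with earlier results of these data known. In this set, 5 genes favour survival (*BCL2*, *BCL2L1*, *MCL1*, *BCL2L2* and *BCL2A1*) and 5 favour death (*BAK1*, *BCL2L11*, *BID*, *BAD* and *BIK*). Their mRNA was measured by RNA sequencing (RNA-seq) in SK-N-AS cells, a human neuroblastoma line. The cells received an siRNA, a short RNA designed to silence 1 gene, directed at Prp19 (siPrp19) or a control siRNA with no such target (NC). By column name there were 3 libraries of each. The study reports that it chose its first siRNA against Prp19 for later assays. With a single sequence, effects of Prp19 loss and of the siRNA on other genes cannot be told apart. The gene *PRPF19* encodes Prp19, a protein needed for pre-mRNA splicing. The labels give 72 h of transfection, a shorter time stands in the study's methods, and the siRNA acted on a single cell line in culture. Expression was given as FPKM, fragments per kilobase of exon scaled to the size of the library, so that levels of different genes can be compared per length. In bulk RNA, fewer cells of a type and less RNA per cell cannot be told apart. The study's methods call the libraries of a group biological replicates, and the labels do not say which cultures they came from.

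The names of the libraries need care. Each file holds 1 column of values, and that column name (NCa, NCb, NCc, siPrp19a, siPrp19b or siPrp19c) was used to group and to name the libraries. The columns NCb and siPrp19b sit in files that are recorded under samples of the opposite group, so the label and the column contradict each other for these 2 libraries. The other 4 libraries carry the same group in both places. The results below are given by column name, and beside the main ones stand the values for the 4 libraries without a contradiction and for the groups as recorded.

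Proteins of this family meet at the outer membrane of mitochondria. BAK (*BAK1*) and its relative BAX are the effectors, which form pores that release cytochrome c. The pro-survival proteins, such as BCL2, BCL-X (*BCL2L1*) and MCL1, hold the effectors and their activators in check. The BH3-only proteins, such as BIM (*BCL2L11*), BID, BAD and BIK, sense stress and bind the pro-survival proteins or the effectors through a short helix called the BH3 domain. Many neuroblastoma cells depend on BCL2 or MCL1 for survival.

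The BH3 domain is what these genes share in sequence. The coding sequence of 1 transcript per gene (GENCODE release 29, GRCh38) was searched for codons of a leucine or methionine, a hydrophobic residue, a small residue, an aspartate and a final hydrophobic residue at the BH3 spacing. The search found 1 match in 9 of the 10 genes and none in *BCL2A1*, and 6.48% of 19513 coding genes hold a match anywhere in their coding sequence. Because the pattern was written from what is known of the BH3 domain of these genes, its presence in them is a description. The following stretches of 42 bases show the match in the genes on which the results turn, with the codons of the small residue and the aspartate in capitals. *BMF*, a further BH3-only gene outside the set of 10, is included because it is the family gene that passed the test below.

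BCL2: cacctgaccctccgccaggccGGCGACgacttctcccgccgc
BCL2L1: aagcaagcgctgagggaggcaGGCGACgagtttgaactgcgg
MCL1: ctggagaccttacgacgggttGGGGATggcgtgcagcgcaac
BAK1: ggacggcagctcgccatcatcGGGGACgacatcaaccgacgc
BCL2L11: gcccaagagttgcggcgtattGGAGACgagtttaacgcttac
BMF: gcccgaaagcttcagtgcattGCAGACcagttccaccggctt

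In GRCh38, the stretch lies in exon 2 of *BCL2* (chr18:63318346-63318387, minus strand), exon 2 of *BCL2L1* (chr20:31721919-31721960, minus strand) and exon 1 of *MCL1* (chr1:150578862-150578903, minus strand). It lies in exon 4 of *BAK1* (chr6:33575384-33575425, minus strand), exon 4 of *BCL2L11* (chr2:111150094-111150135, plus strand) and exon 4 of *BMF* (chr15:40104192-40104233, minus strand). All of these are coding exons of the transcript searched. The small residue is glycine in *BCL2*, *BCL2L1*, *MCL1*, *BAK1* and *BCL2L11* and alanine in *BMF*.

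For 3 of the genes, splicing of known importance decides which protein is made. BCL-X is made in a long pro-survival form and a short form that promotes death, MCL1 has a short form that lacks exon 2, and BIM is made in forms of different length and potency. The coding stretch that the shorter transcript of each gene leaves out is shown, because the FPKM of a gene pools the reads of all its transcripts and cannot tell these forms apart.

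BCL2L1: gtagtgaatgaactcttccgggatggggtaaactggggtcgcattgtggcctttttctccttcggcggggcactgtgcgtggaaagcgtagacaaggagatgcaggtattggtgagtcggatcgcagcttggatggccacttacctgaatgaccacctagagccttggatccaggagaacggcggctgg
MCL1: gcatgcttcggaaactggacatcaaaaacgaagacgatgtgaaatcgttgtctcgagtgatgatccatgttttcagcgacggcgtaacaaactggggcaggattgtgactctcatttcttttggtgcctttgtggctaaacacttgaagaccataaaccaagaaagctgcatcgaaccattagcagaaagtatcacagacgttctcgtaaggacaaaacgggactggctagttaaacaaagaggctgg
BCL2L11: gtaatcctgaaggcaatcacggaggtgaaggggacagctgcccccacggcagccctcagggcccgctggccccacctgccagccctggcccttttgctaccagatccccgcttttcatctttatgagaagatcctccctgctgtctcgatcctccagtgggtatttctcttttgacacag

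The *BCL2L1* stretch (chr20:31721655-31721843, 189 bases, minus strand) is left out by BCL2L1-202, which uses an earlier 5′ splice site of the same exon. The *MCL1* stretch (chr1:150578244-150578491, 248 bases, minus strand) is exon 2, which MCL1-201 skips. The *BCL2L11* stretch (chr2:111123870-111124049, 180 bases, plus strand) is kept in BCL2L11-206 and left out of BCL2L11-201. None of the 3 stretches holds the BH3 match shown above. Everything reported here on these genes is the sum over their transcripts, and a shift between forms was not measured.

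Between 14887132 and 19977811 reads per library were recovered from the FPKM values. Mitochondrial transcripts took 8.29% of the reads in siPrp19a and 5.15% to 5.49% in the other 5 libraries. *PRPF19*, the target, was at 83.0 FPKM in NCa, 83.1 in NCb and 93.0 in NCc, and at 19.6 FPKM in siPrp19a, 19.1 in siPrp19b and 18.5 in siPrp19c. The target thus followed the column name in all 6 libraries and went against the sample label in NCb and siPrp19b. Its log2 fold change was -2.12 ± 0.07 (SE, limma adjusted p = 0.000215). By chi-square per degree of freedom of the reads, NCa and NCb (1.72) and siPrp19b and siPrp19c (2.59) were the closest pairs, against 18.0 to 46.7 for the other 13 pairs. No pair was merged, and the tests treated all 6 libraries as independent. If the libraries of a close pair came from 1 culture, the SE, SD and p-values given here would be too small, which was not tested. The 4 libraries without a contradiction hold 1 library of each close pair. Of 8 adrenergic neuroblastoma markers, 7 had a mean of at least 1 FPKM (the exception was *TH*), and the sum of the 8 was 304 to 322 FPKM in NC and 238 to 250 FPKM in siPrp19. All 6 mesenchymal markers were present, with a sum of 229 to 253 FPKM in NC and 175 to 202 FPKM in siPrp19. Of 8 markers of blood, endothelial, epithelial and liver cells, 4 were at 0 in every library and *PTPRC* carried nearly all of the sum, which was 25.8 to 31.6 FPKM in NC and 17.5 to 21.4 FPKM in siPrp19. The part of these marker sums in the results below was not tested.

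*MCL1* was the most abundant of the 10 genes in every library. It lay between 96.1 and 113.5 FPKM, or 81.3% to 84.7% of the summed FPKM of the 5 pro-survival genes. The next level was shared by 3 pro-death genes. In the NC columns, *BAK1* was at 15.0 to 18.2 FPKM, *BID* at 14.0 to 17.5 FPKM and *BAD* at 13.0 to 17.1 FPKM, and the ranges of these neighbours overlapped. Below them, in the NC columns, came *BCL2L2* (10.0 to 10.1 FPKM), *BCL2L1* (7.43 to 9.60 FPKM), *BCL2* (2.72 to 3.31 FPKM), *BIK* (2.05 to 2.13 FPKM), *BCL2L11* (1.23 to 1.70 FPKM) and *BCL2A1* (0.694 to 0.986 FPKM). Each of these ranges was clear of the next. In the siPrp19 columns, the order of the lower genes was less distinct, since *BIK* ran from 1.06 to 3.20 FPKM and overlapped *BCL2* and *BCL2L11*.

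**Figure D1:**
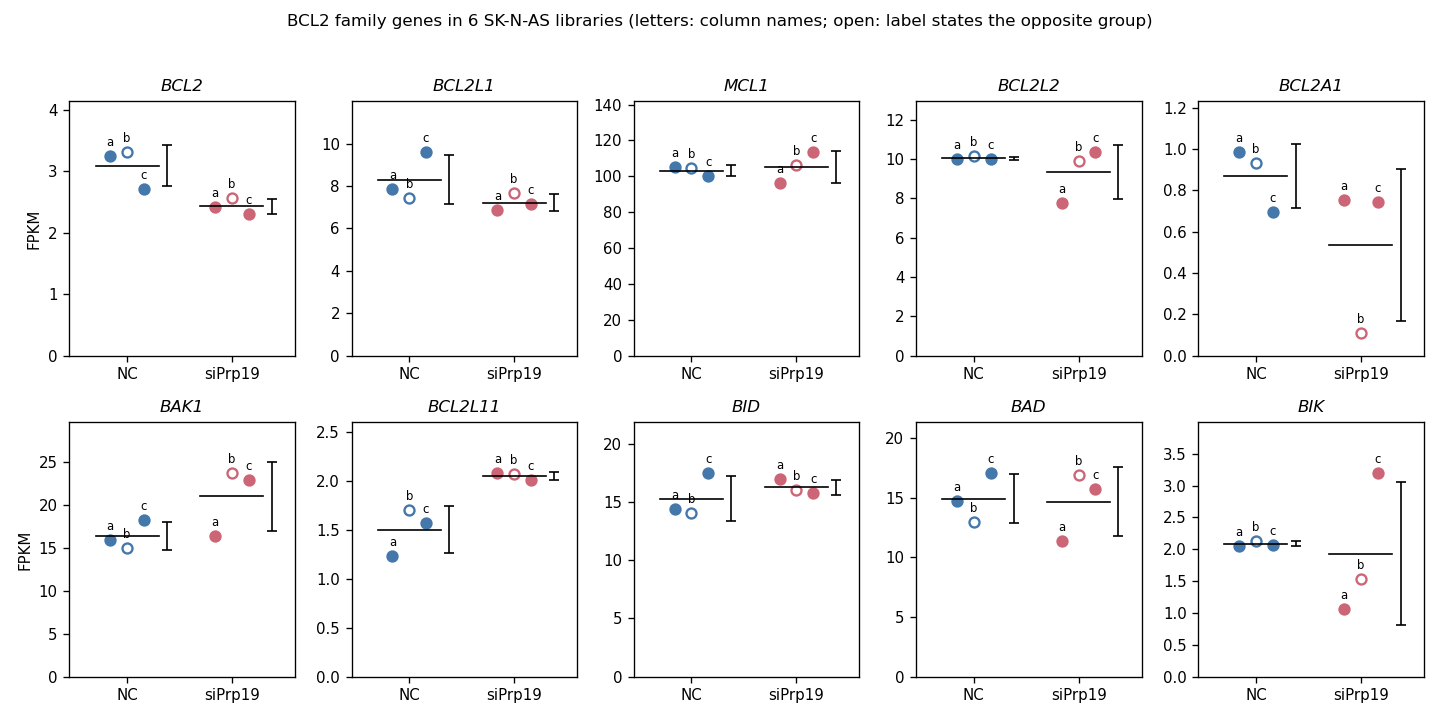
FPKM (y axis, from 0) of the 10 BCL2 family genes in the 3 NC and the 3 siPrp19 columns, with letters for the columns, open circles for the 2 libraries whose label states the opposite group, a line for the mean and a bar for the SD (n = 3). The columns are clear of each other for *BCL2* and *BCL2L11* only, and *BAK1* in siPrp19a (16.3 FPKM) lies with the NC columns.

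The summed FPKM of the pro-survival genes was 127 in NCa, 127 in NCb and 123 in NCc, and 114 in siPrp19a, 126 in siPrp19b and 134 in siPrp19c. The summed FPKM of the pro-death genes was 48.2 in NCa, 45.8 in NCb and 56.4 in NCc, and 47.8 in siPrp19a, 60.2 in siPrp19b and 59.6 in siPrp19c. Both sums overlapped between the groups. The ratio of the pro-survival to the pro-death sum was 2.63, 2.76 and 2.18 in NCa, NCb and NCc and 2.38, 2.10 and 2.25 in siPrp19a, siPrp19b and siPrp19c, which also overlapped. With *MCL1* left out of the sum, the ratio was 0.408 to 0.476 in NC and 0.336 to 0.372 in siPrp19. No other gene was left out in this way, and the ratio of the full sums overlapped. These sums describe the mRNA and were not tested.

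**Figure D2:**
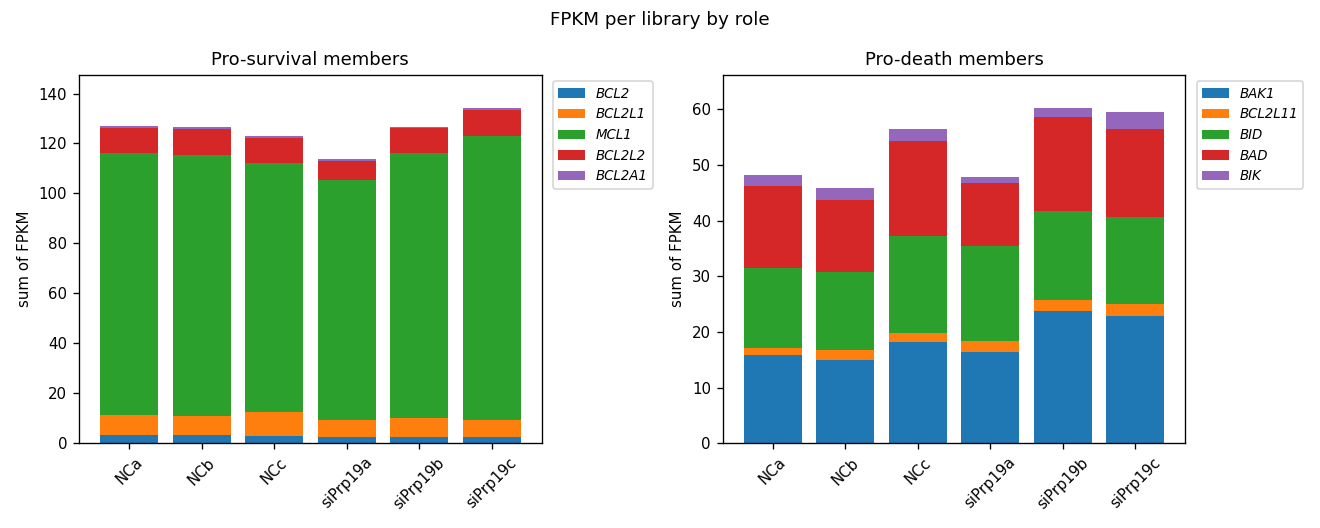
Stacked bars of the FPKM (y axis, from 0) of the 5 pro-survival genes and the 5 pro-death genes in each of the 6 libraries. *MCL1* makes up most of the pro-survival bars, and the pro-death bars are highest in siPrp19b and siPrp19c, where *BAK1* takes 39.4% and 38.5% of the sum.

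The comparison of the siPrp19 with the NC columns asked which of these genes changed in mRNA level when Prp19 was depleted. Of the 10 genes, 9 had a mean of at least 1 FPKM and were tested, and *BCL2A1* was not. By limma, with p-values adjusted over 13718 tested genes and a threshold of 0.05, 0 of the 9 passed, whereas 7.94% of all tested genes did, 2.57% with a higher and 5.37% with a lower level in siPrp19. Without adjustment, 2 of the 9 genes had a p-value under 0.05, *BCL2* and *BCL2L11*, as did 23.6% of all tested genes. Groups that did not overlap were found for the same 2 genes, and for 31.3% of all tested genes. With voom, a limma model for counts, on the recovered reads, 1 of the 9 passed, namely *BCL2L11*, against 9.99% of all tested genes, 5.45% higher and 4.54% lower. Of the genes that passed, 32.4% were higher in siPrp19 by limma on FPKM, 46.1% under quantile normalization and 54.5% with voom. The median log2 fold change was -0.03 over the 9 genes and -0.02 over all tested genes. In the 4 libraries without a contradiction, 0 of the 9 genes passed by limma, where 0.0146% of all tested genes did and 12.3% had an unadjusted p-value under 0.05. With the groups as recorded, 0 of the 9 passed, where 0% of all tested genes did and 1.39% had an unadjusted p-value under 0.05.

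**Figure D3:**
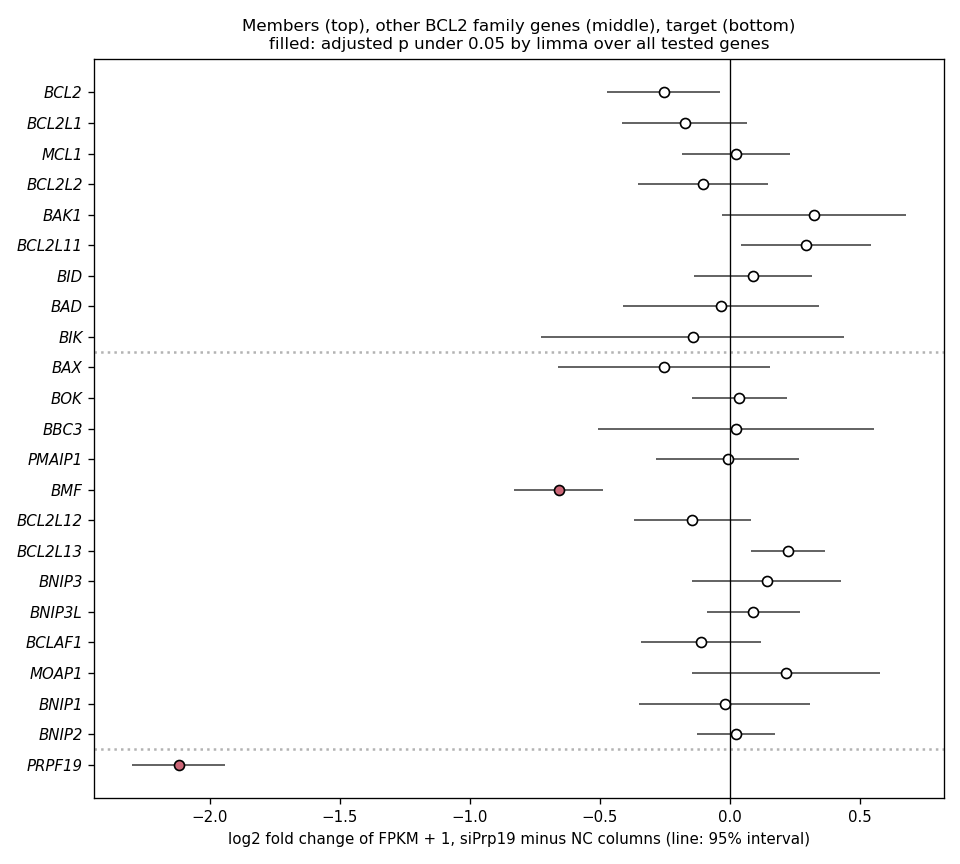
Log2 fold change of FPKM + 1 (x axis, siPrp19 minus NC columns) with its 95% interval for the 9 tested members, 13 other genes of the BCL2 family or its partners, and *PRPF19*. Only *BMF* (-0.66) and *PRPF19* (-2.12) have filled circles, which mark genes that passed by limma, and the circles of the 9 members lie between -0.25 and 0.33.

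Among the pro-survival genes, *BCL2*, the founding member of the family (ENSG00000171791, chr18:63123346-63320128, minus strand, GRCh38), was at 3.25 FPKM in NCa, 3.31 in NCb and 2.72 in NCc, and at 2.42 FPKM in siPrp19a, 2.56 in siPrp19b and 2.31 in siPrp19c. All siPrp19 columns were below all NC columns, as for 18.1% of tested genes. The group means were 3.10 ± 0.328 and 2.43 ± 0.125 FPKM (SD, n = 3). On the log2 scale, the difference of -0.25 ± 0.09 did not pass (SE, limma adjusted p = 0.147). It was -0.24 in the 4 libraries without a contradiction (limma adjusted p = 0.559) and -0.07 with the groups as recorded (limma adjusted p = 1.00). Between 449 and 606 reads per library stood behind these values.

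*BCL2L1*, which encodes BCL-X (ENSG00000171552, chr20:31664452-31723989, minus strand), was at 7.85 FPKM in NCa, 7.43 in NCb and 9.60 in NCc, and at 6.86 FPKM in siPrp19a, 7.64 in siPrp19b and 7.13 in siPrp19c. The columns overlapped, since siPrp19b was above NCb. The log2 fold change was -0.17 ± 0.10 (SE, limma adjusted p = 0.352). A share of 43.0% of the exon bases of *BCL2L1* is also covered by exons of a gene on the opposite strand. Whether the counting used strand is not given in the sources used here, so reads in the shared bases could not be assigned with certainty. In the 4 libraries without a contradiction the log2 fold change was -0.28 (limma adjusted p = 0.483), and with the groups as recorded it was -0.20 (limma adjusted p = 1.00).

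*MCL1* (ENSG00000143384, chr1:150574551-150579738, minus strand), whose short-lived protein holds BIM and BAK in check, was at 105 FPKM in NCa, 105 in NCb and 100 in NCc, and at 96.1 FPKM in siPrp19a, 106 in siPrp19b and 114 in siPrp19c. The siPrp19 columns lay on both sides of the NC columns. The log2 fold change was 0.02 ± 0.09 (SE, limma adjusted p = 0.896), with a 95% interval from -0.18 to 0.23, and without siPrp19c it was -0.031. With 6636 to 10421 reads per library, *MCL1* was the best covered of the 10 genes.

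*BCL2L2*, which encodes BCL-W (ENSG00000129473, chr14:23298790-23311759, plus strand), was nearly level in the NC columns, at 10.0, 10.1 and 10.0 FPKM, and was at 7.78 FPKM in siPrp19a, 9.92 in siPrp19b and 10.4 in siPrp19c. The groups overlapped, with siPrp19a as the low library. The log2 fold change was -0.10 ± 0.10 (SE, limma adjusted p = 0.609), and without siPrp19a it was 0.011. Exons of other genes, among them a read-through transcript with *PABPN1* on the same strand, cover 24.3% of its exon bases, so its level is uncertain. *BCL2A1*, which encodes BFL1 (ENSG00000140379, chr15:79960889-79971446, minus strand), was the sparsest member, with 17, 15 and 13 reads in NCa, NCb and NCc and 13, 2 and 17 reads in siPrp19a, siPrp19b and siPrp19c. The 2 reads in siPrp19b have an exact 95% Poisson interval of 0.242 to 7.22 reads, which covers counting error only. On the log2 scale, the groups differed by -0.31 (two-sided exact permutation p = 0.3), where 3 libraries a group cannot reach a p-value below 0.1. Without siPrp19b, the difference was -0.094.

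*BAK1* (ENSG00000030110, chr6:33572547-33580293, minus strand) was the only effector in the set. Its level was 15.9 FPKM in NCa, 15.0 in NCb and 18.2 in NCc, and 16.3 FPKM in siPrp19a, 23.7 in siPrp19b and 22.9 in siPrp19c. Both siPrp19b and siPrp19c were above all NC columns, and siPrp19a was not. Its log2 fold change of 0.33 ± 0.15 did not pass (SE, limma adjusted p = 0.242). Without siPrp19a, the library with the high mitochondrial share, it was 0.49 and passed (limma adjusted p = 0.0383), whereas the limma adjusted p was 0.187 to 0.507 without any other single library. In the fit without siPrp19a, the siPrp19 group was the close pair siPrp19b and siPrp19c (chi-square per degree of freedom 2.59). If both came from 1 culture, this p-value would be too small, which was not tested. The log2 fold change of *BAK1* was 0.18 in the 4 libraries without a contradiction, with 1 library of each close pair (limma adjusted p = 0.729). With the groups as recorded the sign was the opposite, at -0.092. The part of the mitochondrial share in this result was not tested.

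Among the BH3-only genes, *BCL2L11* (ENSG00000153094, chr2:111119378-111168447, plus strand), which encodes BIM, a direct activator of the effectors, was at 1.23 FPKM in NCa, 1.70 in NCb and 1.57 in NCc, and at 2.08 FPKM in siPrp19a, 2.07 in siPrp19b and 2.01 in siPrp19c. All siPrp19 columns were above all NC columns, as for 13.2% of tested genes. The mean was 36.9% higher in siPrp19, at 2.06 ± 0.0398 against 1.5 ± 0.242 FPKM (SD, n = 3). On the log2 scale, the difference was 0.29 ± 0.10 and did not pass (SE, limma adjusted p = 0.146). With voom on the recovered reads, it was 0.54 and passed (adjusted p = 0.0340), so the call differed between the models. In the 4 libraries without a contradiction, it was 0.35 (limma adjusted p = 0.451), and 0.17 with the groups as recorded (limma adjusted p = 1.00). There were 130 to 281 reads per library, and 10.9% of the exon bases are shared with a gene on the opposite strand. The level of *BCL2L11* relative to *BCL2* was 0.379, 0.513 and 0.578 in NCa, NCb and NCc and 0.862, 0.811 and 0.870 in siPrp19a, siPrp19b and siPrp19c. This ratio was not tested. It must separate the groups, because each gene alone did so, in opposite directions, and it adds nothing to their separate values.

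The 3 other BH3-only genes overlapped between the groups. *BID* (ENSG00000015475, chr22:17734138-17774770, minus strand), which links death receptors to mitochondria, ran from 14.0 to 17.5 FPKM in NC and from 15.8 to 17.0 FPKM in siPrp19. The log2 fold change of *BID* was 0.09 ± 0.09 (SE, limma adjusted p = 0.622), and with the groups as recorded it was -0.032. *BAD* (ENSG00000002330, chr11:64269830-64284704, minus strand), which is held inactive by 14-3-3 proteins when phosphorylated, was at 14.7, 13.0 and 17.1 FPKM in NCa, NCb and NCc and at 11.4, 16.8 and 15.7 FPKM in siPrp19a, siPrp19b and siPrp19c. Its log2 fold change of -0.03 ± 0.16 (SE, limma adjusted p = 0.923) had no settled sign, since it was 0.031 under quantile normalization and 0.040 with voom. The log2 fold change of *BAD* was -0.23 in the 4 libraries without a contradiction (limma adjusted p = 0.648) and -0.27 with the groups as recorded. Some 23.7% of its exon bases are also covered by a gene on the opposite strand.

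*BIK* (ENSG00000100290, chr22:43110748-43129712, plus strand), a BH3-only gene whose protein resides at the endoplasmic reticulum, stood out by its spread. The NC columns were at 2.05, 2.13 and 2.07 FPKM. The siPrp19 columns were at 1.06 FPKM in siPrp19a, 1.53 in siPrp19b and 3.20 in siPrp19c, on both sides of NC. The siPrp19c value rests on 64 reads (exact 95% Poisson interval 49.3 to 81.7) and the siPrp19a value on 16 reads (9.15 to 26.0). The log2 fold change was -0.14 ± 0.24 (SE, limma adjusted p = 0.776), with a 95% interval from -0.72 to 0.43. Without siPrp19a it was 0.077, and with the groups as recorded 0.065.

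The libraries did not contribute evenly to these patterns. Of the 10 genes, 5 had their lowest level in siPrp19a, namely *MCL1*, *BAD*, *BCL2L2*, *BCL2L1* and *BIK*. By contrast, NCc held the highest level of 3 genes and siPrp19c that of 3 genes.

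Other genes of the family and of proteins that interact with it were examined next. The list includes *BCLAF1*, *MOAP1*, *BNIP1*, *BNIP2* and *BNIPL*, which encode partners rather than members of the family. Of 18 listed, 13 were tested, of which 1 passed by limma in the comparison of column names and 12 did not, with a median log2 fold change of 0.02. A count of 1 in 13 is near the 7.94% of all tested genes that passed. The gene that passed was *BMF*, a BH3-only gene whose protein binds the dynein light chain and is known from the response to loss of cell attachment. *BMF* was at 7.18 FPKM in NCa, 6.78 in NCb and 6.37 in NCc, and at 3.80 FPKM in siPrp19a, 4.08 in siPrp19b and 3.91 in siPrp19c. All siPrp19 columns were well below all NC columns, and the mean was 42.0% lower. On the log2 scale, the change was -0.66 ± 0.07 (SE, limma adjusted p = 0.00501). It passed in each fit without 1 library, with adjusted p-values from 0.00756 to 0.0336, and with voom, at 0.00290. In the 4 libraries without a contradiction, the log2 fold change was -0.68 and did not pass (limma adjusted p = 0.133), and with the groups as recorded it was -0.25 (limma adjusted p = 1.00). *BMF* (ENSG00000104081) lies at chr15:40087890-40108892 (minus strand, GRCh38) and shares 8.46% of its exon bases with a gene on the opposite strand. Between 327 and 619 reads per library stood behind its values.

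*BAX*, the other main effector, did not pass. It was at 33.3, 33.0 and 41.9 FPKM in NCa, NCb and NCc and at 23.0, 34.4 and 33.7 FPKM in siPrp19a, siPrp19b and siPrp19c, with a log2 fold change of -0.25 ± 0.17 (SE, limma adjusted p = 0.429). The log2 fold change of *BAX* was -0.41 in the 4 libraries without a contradiction (limma adjusted p = 0.512) and -0.29 with the groups as recorded. *BBC3* and *PMAIP1*, which encode the p53-induced BH3-only proteins PUMA and NOXA, had log2 fold changes of 0.02 ± 0.22 and -0.01 ± 0.11 (SE). Neither passed (limma adjusted p = 0.961 and 0.980), and both had the opposite sign under some of the alternatives. By limma, 0 of the 13 genes passed in the 4 libraries or with the groups as recorded. With voom, 2 of the 13 genes passed, *BMF* and *BCL2L13*, a mitochondrial family member with a log2 fold change of 0.23 in the fit of FPKM (limma adjusted p = 0.0664). *BCL2L13* was chosen for mention after its values were seen.

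**Figure D4:**
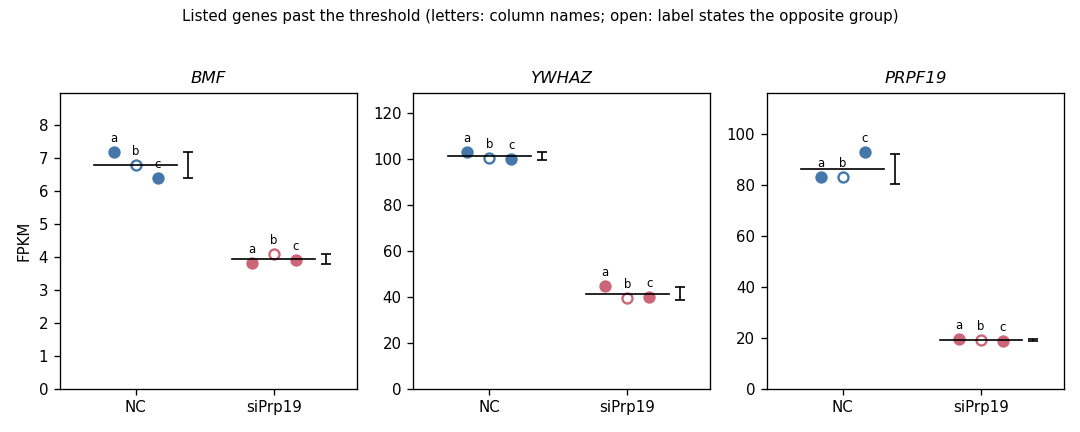
FPKM (y axis, from 0) of *BMF*, *YWHAZ* and *PRPF19* in the NC and siPrp19 columns, with letters for the columns, open circles for the 2 libraries whose label states the opposite group, a line for the mean and a bar for the SD (n = 3). For each of the 3 genes, the open circles lie with the group of their column name, and the groups do not overlap.

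The machinery around the family was then described by 4 lists. Of 12 genes that control the turnover or activity of MCL1, BIM and BAD, all 12 were tested and 1 passed by limma, which is near the 7.94% of all tested genes, with a median log2 fold change of 0.03. The gene was *YWHAZ*, which encodes 14-3-3 zeta, a protein that binds phosphorylated BAD. It was at 103 FPKM in NCa, 100 in NCb and 99.8 in NCc, and at 44.5 FPKM in siPrp19a, 39.3 in siPrp19b and 40.0 in siPrp19c. The groups did not overlap, and the log2 fold change was -1.27 ± 0.08 (SE, limma adjusted p = 0.00161). *YWHAZ* ranked 5 among all tested genes by p-value. In the 4 libraries without a contradiction, the log2 fold change was -1.25, which missed the threshold (limma adjusted p = 0.0819). With the groups as recorded, it was -0.39 (limma adjusted p = 1.00). With voom, 2 of the 12 genes passed, *YWHAZ* and *MAPK3*, which encodes the kinase ERK1 and was chosen for mention after its values were seen (log2 fold change 0.32 on FPKM, limma adjusted p = 0.0794, voom adjusted p = 0.0254).

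The list around the apoptosome held 13 genes, such as those of cytochrome c, the caspases and the VDAC channels of the outer membrane. All 13 were tested and 0 passed by limma, against 7.94% of all tested genes. Without adjustment, 4 of the 13 had a p-value under 0.05, against 23.6% of all tested genes, and the median log2 fold change was -0.12. *APAF1*, the scaffold of the apoptosome, was the 1 gene of this list that passed with voom (adjusted p = 0.0171) and was chosen for mention for that reason. It was at 3.09, 3.45 and 2.29 FPKM in NCa, NCb and NCc and at 4.52, 4.36 and 4.4 FPKM in siPrp19a, siPrp19b and siPrp19c. Its log2 fold change was 0.47 ± 0.12 (SE, limma adjusted p = 0.0581) on FPKM.

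Of 17 regulators of the splicing of BCL-X, MCL1 and BIM, 16 were tested and 0 passed by limma or with voom. Without adjustment, 9 of the 16 had a p-value under 0.05, against 23.6% of all tested genes, and the siPrp19 columns of 9 of the 16 were all below the NC columns, against 18.1% of all tested genes. The median log2 fold change of this list was -0.21, which was the lowest of the lists. Of 7 transcription factors that drive BH3-only genes, 5 were tested and 0 passed by limma or with voom, with 2 at an unadjusted p-value under 0.05, against 23.6% of all tested genes, and a median log2 fold change of -0.18. Once the values were corrected for the GC content and exon length of the genes, 13.3% of all tested genes passed by limma, and the counts of 0 did not hold for these lists. Then 3 of the 13 genes around the apoptosome passed, *APAF1* at an adjusted p of 0.0157, *HTRA2* at 0.0460 and *VDAC2* at 0.0378. Their corrected log2 fold changes differed in sign, at 0.50 for *APAF1*, -0.27 for *HTRA2* and -0.39 for *VDAC2*. So did 2 of the 16 splicing regulators pass (*KHDRBS1* at 0.0305 and *PTBP1* at 0.0216) and 2 of the 5 transcription factors (*FOXO3* at 0.0192 and *E2F1* at 0.0244). These genes were chosen for mention after their values were seen. Under the same correction, 0 of the 9 members passed by limma. As the lists were written with earlier results of these data known, their counts and medians are descriptions.

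**Figure D5:**
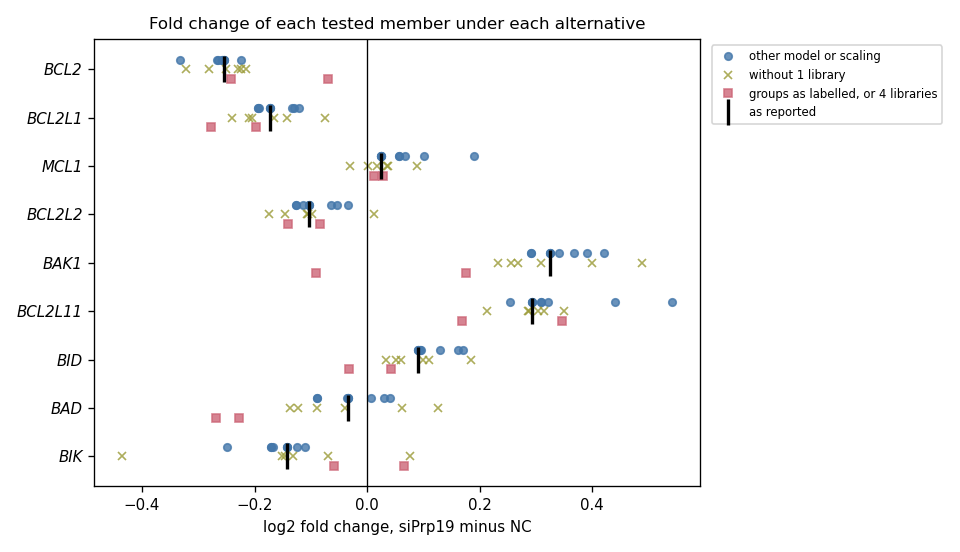
Log2 fold change (x axis, siPrp19 minus NC) of the 9 tested members as reported (black ticks) and under the alternatives: other models or scalings (circles), fits without 1 library (crosses) and the 2 other groupings (squares). *BCL2*, *BCL2L1* and *BCL2L11* keep their sign under all of these. *BAD*, *BIK*, *MCL1* and *BCL2L2* cross 0 in at least 1 fit by column name, and *BAK1* and *BID* only with the groups as recorded.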

How the data were processed

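The authors deposited 1 table per library with an FPKM value for each of 58735 Ensembl genes. The submitters' processing notes name HISAT2 2.0.5, featureCounts 1.5.0-p3 and hg38, whereas the annotation and strandedness are not given in the sources used here. Gene symbols were looked up by identifier, 58207 in a list of current symbols and the other 528 in GENCODE release 29 (GRCh38). The product of FPKM and merged exon length was a whole multiple of 1 step for 100% of values above 0 (tolerance 0.01 reads), which gave the reads per gene. Their total, over the library size that the FPKM imply, was 1.01 to 1.04 in NC and 0.951 to 0.989 in siPrp19. The values thus also carry a between-library factor of a few percent, whose origin is not given in the sources used here. This factor sets the siPrp19 values lower against the NC values than the read totals alone would. Its part in the fold changes and in the share of higher genes was not tested.

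Groups followed the column names, each of which equals the description of 1 sample. Of the 6 files, 4 are recorded under another sample than their column names, and 2 of these under the opposite group. Genes with a mean of at least 1 FPKM were kept, log2(FPKM + 1) was fitted with limma 3.58.1 (R 4.3.3) with a mean-variance trend, and p-values were adjusted over 13718 genes by Benjamini-Hochberg. Fold changes on this scale understate those of low genes. *BCL2A1*, below the filter, was tested with an exact permutation test. The study itself modelled counts, which were not used here. The procedure was tested on simulated data. Python 3.11.15, numpy 2.4.6, pandas 2.3.3, scipy 1.17.1 and matplotlib 3.10.9 were used.

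The members and gene lists were chosen with earlier results of these data known. Named were the 10 members, *PRPF19*, *BAX*, *BBC3*, *PMAIP1* and, per further list, up to 4 genes past the threshold with the largest change. The alternatives were the groups as recorded, the 4 agreeing libraries, a pseudocount of 0.1, no filter, quantile normalization, an equal FPKM sum, no trend, the replicate letter as a block, voom on the recovered reads and leaving out each library. A correction for GC content and length (splines of 4 degrees of freedom), with and without the block, was added after the data were examined.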

Additional observations from a re-analysis of the deposited data

How the results depend on the processing

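By column name, 1089 genes passed by limma, 353 higher and 736 lower in siPrp19 (32.4% higher). The count was 0 with the groups as recorded, with 191 genes at an unadjusted p-value under 0.05, and 2 in the 4 libraries without a contradiction. It was 512 without the filter, 679 with an equal FPKM sum, 1824 with the GC and length correction, and 253 to 1354 over the 6 fits that each left out 1 library (264 without NCa, 335 without NCb, 270 without siPrp19b and 253 without siPrp19c). The share of higher genes was 46.1% under quantile normalization and 54.5% with voom. With the replicate block, 928 genes passed, of which 815 were among the 1089, and with the block and the correction 1428. Libraries of the same letter correlated in their deviations from the group means at 0.13, -0.05 and 0.20, and those of different letters at -0.20 to 0.13. With so few libraries a group, these values cannot show whether the letters paired the samples. The block changed no call of the members and other genes named by the rule. It added 1 gene of the list around the apoptosome, *VDAC2* (limma adjusted p = 0.0410), chosen for mention after its values were seen. With the GC and length correction, 3 genes around the apoptosome, 2 splicing regulators and 2 transcription factors passed where 0 had, and with the block added 2, 0 and 2. For *BCL2A1*, the filter, trend, block, voom and GC alternatives were not run, since it had an exact test.

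Of the log2 fold changes, the following had the opposite sign under an alternative, and the cause was not tested. With the groups as recorded, they were *BAK1* (-0.092), *BID* (-0.032), *BIK* (0.065), *BBC3* (-0.21) and *BCL2A1* (0.22). They were *BAD* (0.031) and *PMAIP1* (0.064) under quantile normalization, *BAD* (0.0073) and *PMAIP1* (0.034) with an equal FPKM sum, and *BAD* (0.040) and *PMAIP1* (0.070) with voom. *BBC3* was at -0.14 in the 4 libraries and at -0.027 with the GC and length correction, where *PMAIP1* was at 0.035, with or without the block. Over the fits without 1 library, the range was -0.031 to 0.088 for *MCL1*, -0.17 to 0.011 for *BCL2L2*, -0.14 to 0.13 for *BAD*, -0.44 to 0.077 for *BIK*, -0.14 to 0.25 for *BBC3*, -0.068 to 0.10 for *PMAIP1* and -0.42 to -0.094 for *BCL2A1*. *BIK* was at its upper end without siPrp19a and at its lower end without siPrp19c. *BCL2A1* and *BIK* had the fewest reads of the members, at most 17 and 64 per library.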
